A study of Mus musculus with 6 samples.

Results

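The genes described here are 38 genes of G2 and mitosis, chosen by name as rows of the deposited table, which held all 38 among its 49492 gene symbols. RNA was measured by poly(A) RNA-seq in palatal shelves, the outgrowths of the upper jaw that become the secondary palate, taken from C57BL mouse embryos at embryonic stage E14.5. The 3 control libraries came from PRMT1 fl/fl embryos, in which Prmt1 carries loxP sites. The 3 deletion libraries came from Wnt1-Cre; PRMT1 fl/fl embryos, which have the same floxed alleles together with a Cre recombinase driven by Wnt1 sequences, active in neural crest and thus in the precursors of palatal mesenchyme but not in those of epithelium, muscle or blood. Prmt1 encodes the main asymmetric arginine methyltransferase. The design text of the series names proliferation and cell cycle control in advance as processes in which altered genes were anticipated. No group carried Cre without floxed Prmt1, so an effect of Cre and one of the deletion cannot be told apart. Libraries are named as in the table's columns, control cont212, cont213 and cont220 and deletion mut208, mut211 and mut221, and values by library follow that order. Whether each was 1 separate embryo is not in the labels, so that p-values cover only the spread among these 6 libraries, part of which may be technical.

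Totals ran from 44919889 to 50022829 estimated counts per library. Levels are in CPM (counts scaled to library size, with TMM factors). Prmt1 itself measured 258, 249.7 and 246 CPM (control) and 201, 206 and 217 CPM (deletion), with every deletion library below every control (log2 fold change -0.27 ± 0.05 (SE), edgeR adjusted p = 0.0113). Libraries also differed in embryo sex, which the labels do not give. Xist was at 15.5 and 16.0 CPM in cont212 and cont213, with 247 and 254 CPM of 4 Y-linked genes together, and at 3384 to 4487 CPM in cont220 and the deletion libraries, where the Y-linked genes reached at most 0.402 CPM. Library cont220 was thus the only control of the same sex as the deletion libraries, and came from a different embryo than cont212 and cont213. The 8 palatal mesenchyme markers were all present (summed level 10798 to 13004 CPM in controls and 9238 to 10461 CPM in deletion libraries). That sum is mostly collagens, and the markers did not move together. Log2 fold changes were -0.53 (Col1a1), -0.36 (Col1a2), -0.12 (Col3a1), -0.15 (Msx1) and -0.03 (Twist1). They were 0.05 (Prrx1), 0.15 (Pdgfra) and 0.15 (Osr2) in the others.

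Cells that have copied their DNA pass through G2 and enter mitosis when Cdk1, the mitotic cyclin-dependent kinase, is activated by A- and B-type cyclins. Kinases of the Polo and Aurora families then build the spindle, kinetochores attach chromosomes to it, the spindle checkpoint delays anaphase until attachment is complete, and the anaphase-promoting complex ends mitosis by marking cyclins and securin for destruction. Transcripts of most of these genes are made mainly in late S phase, G2 and M, so in tissue they follow the share of cells in those phases. In bulk RNA, fewer cycling cells and less of each RNA per cycling cell cannot be told apart. In the palate, proliferating mesenchyme fuels the growth and elevation of the shelves.

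Many genes of this kind share a promoter arrangement, in which a cell cycle genes homology region (CHR) lies near the transcription start, downstream of CCAAT boxes. The CHR is bound by the DREAM repressor in resting cells and by the B-Myb and Foxm1 complexes in dividing cells, and CCAAT boxes are bound by NF-Y. RefSeq promoter windows (build GRCm38.p6, 250 bases before to 50 after each start) were found for 32 of the 38 genes, and none was matched for Ccna2, Cdc25c, Foxm1, Aurkb, Tpx2 and Smc4. Each window was searched on both strands for TTTGAA, the commonest CHR sequence, for its variant TTCGAA and for CCAAT. A match to TTTGAA was present in 23 of the 32 (71.9%), against 20.2% of all 27025 genes with a window. It lay within 30 bases of the start in 15 of 32 (46.9%), against 3.66% of all genes. CCAAT was present in 23 of 32 (71.9%), against 41.1%, and a pair of CCAAT matches 25 to 40 bases apart in 12 (37.5%), against 3.79%. TTCGAA was found in 3 (9.38%), against 1.8%. Windows of G1/S genes held TTTGAA in 5 of 28 (17.9%), and within 30 bases of the start in 2 (7.14%). They held CCAAT in 16 (57.1%) and such a CCAAT pair in 4 (14.3%). Other genes of mitosis, 102 with a window, shared much of the arrangement. TTTGAA was present in 39 (38.2%), and within 30 bases of the start in 26 (25.5%). CCAAT was present in 61 (59.8%) and a CCAAT pair in 18 (17.6%). These are matches of letters and were not measured as binding sites.

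The following promoters are shown to make that arrangement visible. Each runs from 120 bases before the start to 20 bases after it, 5′ to 3′ on the gene's strand, with TTTGAA and CCAAT in capitals (TTCAAA and ATTGG are the same letters on the other strand). Cdk1, cyclin B2 (Ccnb2) and Cdc20 show the CHR letters close to the start with CCAAT upstream, as do the spindle motor Kif11, the ubiquitin-conjugating enzyme Ube2c and the cytokinesis motor Kif23. Tacc3, one of 5 genes with none of the 3 sequences (with G2e3, Nuf2, Birc5 and Nusap1), is shown for contrast.
Cdk1, chr10:69352893-69353032, minus strand: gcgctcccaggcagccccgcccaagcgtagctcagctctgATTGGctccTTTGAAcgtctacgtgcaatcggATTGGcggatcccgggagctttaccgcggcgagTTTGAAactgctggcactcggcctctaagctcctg
Ccnb2, chr9:70421535-70421674, minus strand: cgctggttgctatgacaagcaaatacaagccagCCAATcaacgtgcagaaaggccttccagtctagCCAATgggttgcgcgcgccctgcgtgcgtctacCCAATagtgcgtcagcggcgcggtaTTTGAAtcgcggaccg
Cdc20, chr4:118437324-118437463, minus strand: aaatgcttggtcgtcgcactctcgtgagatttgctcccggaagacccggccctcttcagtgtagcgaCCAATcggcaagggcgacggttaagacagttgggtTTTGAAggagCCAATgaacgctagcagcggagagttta
Kif11, chr19:37376262-37376401, plus strand: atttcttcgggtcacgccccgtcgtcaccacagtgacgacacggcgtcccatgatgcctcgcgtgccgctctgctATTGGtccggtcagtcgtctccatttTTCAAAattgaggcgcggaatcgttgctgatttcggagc
Ube2c, chr2:164769809-164769948, plus strand: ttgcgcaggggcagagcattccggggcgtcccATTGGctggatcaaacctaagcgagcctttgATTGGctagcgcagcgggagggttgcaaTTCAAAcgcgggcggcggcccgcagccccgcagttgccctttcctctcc
Kif23, chr9:61946780-61946919, minus strand: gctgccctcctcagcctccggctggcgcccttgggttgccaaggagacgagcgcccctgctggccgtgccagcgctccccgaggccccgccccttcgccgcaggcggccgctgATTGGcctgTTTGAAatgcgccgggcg
Tacc3, chr5:33658008-33658147, plus strand: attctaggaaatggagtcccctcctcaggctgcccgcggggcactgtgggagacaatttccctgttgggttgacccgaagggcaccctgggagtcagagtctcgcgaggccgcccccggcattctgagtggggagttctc
In Cdk1 the TTTGAA nearest the start began at -15, counted from the first transcribed base as 1, and CCAAT matches began at -80 and -48. In Ccnb2 TTTGAA began at 5, behind CCAAT at -87, -54 and -21.

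None of the 38 genes passed the test for a difference between deletion and control (0 higher and 0 lower, edgeR quasi-likelihood test, adjusted p under 0.05 over 19284 genes), where 7.01% of all tested genes did, 3.65% higher and 3.37% lower. All 38 passed the filter on low counts, and the lowest count of any of them in any library was 750 (Cdc25c). The count was also 0 of 38 with DESeq2 and with limma voom. At an unadjusted p under 0.05, 2 of 38 were lower and 0 higher, against 22.5% of all tested genes in either direction. Fitted log2 fold changes ran from -0.18 (Smc4) to 0.08 (Ncapd2), with a median of -0.07, a level 4.49% lower in deletion, while the median of all tested genes was 0.00 to that precision. Of the 38, 31 were below 0 and 7 above, where 9649 of the 19284 tested genes were below 0.

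The intervals show how large a change these libraries could have missed. All 38 had a 95% interval of the fold change that lay inside 1.3-fold in either direction, and 30 inside 1.2-fold. Among the 9455 tested genes of the same range of mean CPM (17.4 to 628), 83.8% had an interval inside 1.3-fold. The lowest bound was -0.37 for Ndc80, a fall of 22.4%, and the highest 0.30 for Nuf2, a rise of 23.0%. SEs ran from 0.05 to 0.14 with a median of 0.07. Each interval covers its own gene, not all 38 at once, and all rest on 3 controls that differed in level.

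**Figure D1:**
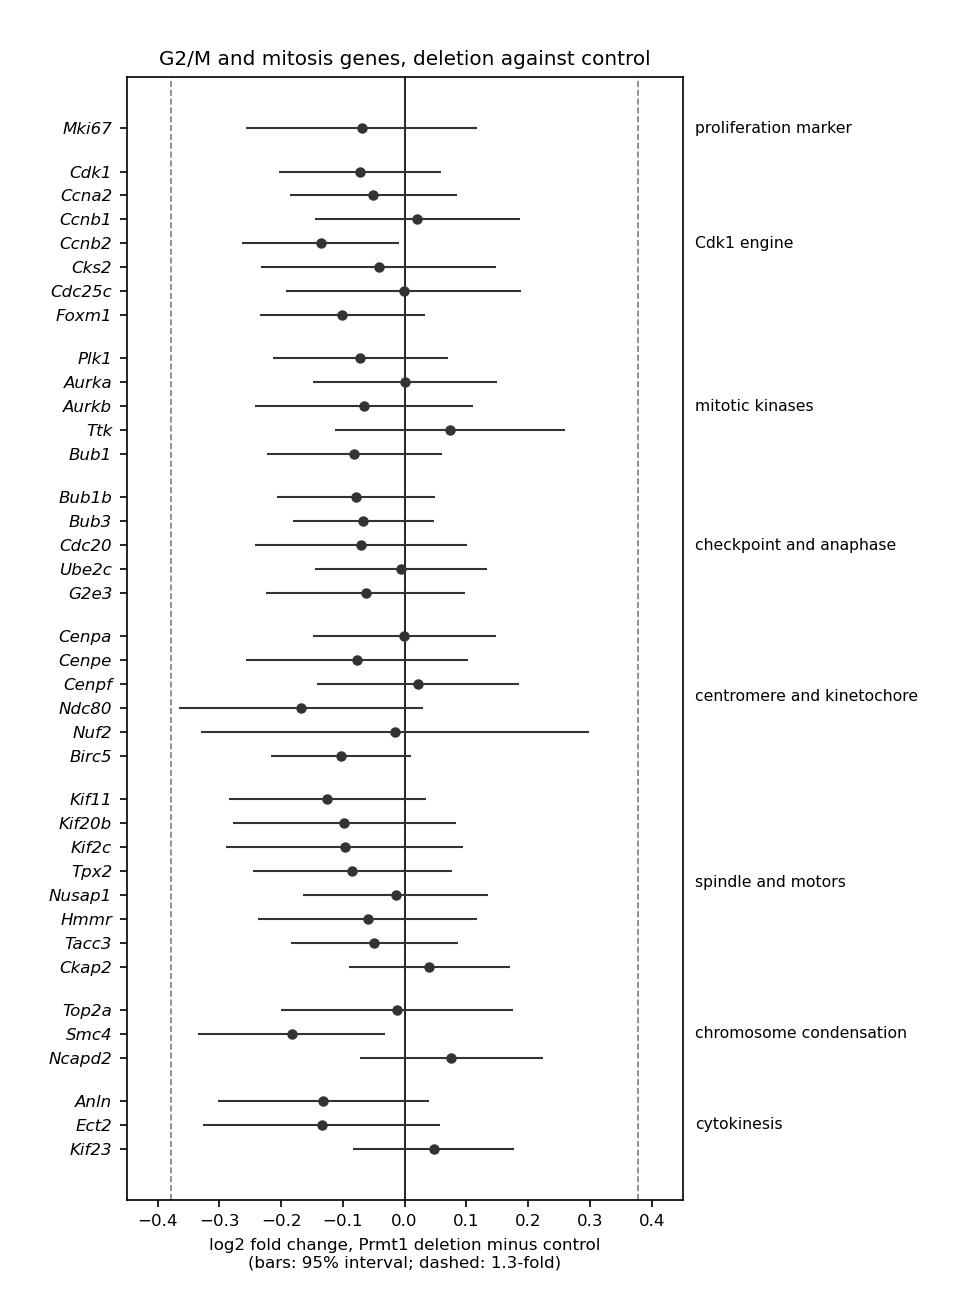
Log2 fold change (horizontal axis, Prmt1 deletion minus control) of each of the 38 genes, grouped by role, with points for the fitted value and bars for its 95% interval. Every bar lies between the dashed lines at 1.3-fold, and all but those of Ccnb2 and Smc4 cross 0.

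Mki67, which encodes the coat protein of mitotic chromosomes used as the Ki-67 proliferation marker, measured 566, 631 and 731 CPM (control) and 603, 639.8 and 595 CPM (deletion). Library cont220 was the highest and cont212 the lowest, so the controls enclosed all 3 deletion libraries. Group means came to 643 ± 83.01 and 613 ± 23.8 CPM (SD, n = 3 each), and the log2 fold change was -0.07 (95% interval -0.26 to 0.12).

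The genes that drive entry into mitosis gave 0 of 7 calls, with 6 of 7 fold changes below 0 and a median log2 fold change of -0.05. Cdk1, the kinase itself, measured 106, 101 and 111 CPM (control) and 97.7, 97.04 and 108 CPM (deletion). Its cyclin partner Ccna2 (cyclin A2), which acts from S phase on, was at 175, 180.2 and 204 CPM (control) and 178, 181 and 181 CPM (deletion). For Ccnb1, the main mitotic cyclin, the values were 80.4, 84.98 and 100.3 CPM (control) and 90.5, 87.4 and 91.5 CPM (deletion). The groups overlapped in all 3 genes, with log2 fold changes of -0.07, -0.05 and 0.02, and cont220 was the highest library in each.

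Ccnb2 (cyclin B2; chromosome 9, 70407692 to 70421547, minus strand, mm10) was one of 3 members whose groups did not overlap. It measured 52.9, 51.9 and 56.00 CPM (control) and 48.4, 48.1 and 49.8 CPM (deletion), so that the highest deletion library lay below the lowest control. Group means came to 53.6 ± 2.15 and 48.8 ± 0.885 CPM (SD, n = 3 each), and its log2 fold change of -0.14 ± 0.06 (SE) did not pass (edgeR adjusted p = 0.193). Ccnb1 and Ccnb2 thus had fitted values on either side of 0, and both intervals (-0.15 to 0.19 and -0.26 to -0.01) overlapped. Whether the 2 cyclins differed in response was not tested. Foxm1, the forkhead factor that activates many G2 genes, was at 102, 113 and 118 CPM (control) and 107, 99.3 and 104 CPM (deletion), with overlapping groups and a log2 fold change of -0.10. Cks2, the small Cdk-binding subunit, and Cdc25c, a phosphatase that activates Cdk1, had log2 fold changes of -0.04 and 0.00 to that precision.

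Among 5 mitotic kinases the median log2 fold change was -0.07 and none passed. Plk1, the Polo-like kinase, was at 62.2, 62.5 and 67.7 CPM (control) and 57.2, 60.8 and 65.1 CPM (deletion). Aurka, the Aurora kinase of centrosomes and spindle poles, was at 47.6, 51.6 and 53.9 CPM (control) and 50.7, 48.5 and 53.96 CPM (deletion). Aurkb, the catalytic subunit of the chromosomal passenger complex, was at 53.2, 57.7 and 65.4 CPM (control) and 55.5, 52.8 and 60.1 CPM (deletion). All 3 overlapped between groups, and the fitted difference of Aurka was 0.00 (95% interval -0.15 to 0.15). Bub1, a checkpoint kinase of kinetochores, measured 59.1, 63.8 and 69.4 CPM (control) and 61.1, 59.7 and 60.9 CPM (deletion), and its deletion libraries were close together, inside the range of the controls. Ttk, which encodes the checkpoint kinase Mps1, was the kinase with the highest fold change (0.07, controls 30.96, 30.4 and 37.5, deletion 35.3, 34.4 and 34.2 CPM by library), and there cont212 and cont213 lay below every deletion library and cont220 above.

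The checkpoint and exit genes also gave 0 of 5 calls, with all 5 fitted values below 0. Bub1b, which encodes the checkpoint protein BubR1, measured 114, 116 and 129 CPM (control) and 110.5, 114 and 115 CPM (deletion). Bub3, its partner at kinetochores, measured 123, 124 and 133 CPM (control) and 117, 123 and 122 CPM (deletion). Cdc20, the activator of the anaphase-promoting complex that the checkpoint holds back, measured 84.6, 91.2 and 96.1 CPM (control) and 77.5, 85.8 and 95.7 CPM (deletion). Library cont220 was the highest library in each. Ube2c, the ubiquitin-conjugating enzyme of that complex, was at 74.9, 82.7 and 86.1 CPM (control) and 78.5, 78.7 and 85.6 CPM (deletion) (log2 fold change -0.01). Exons of Ube2c overlap those of Tnnc2, a troponin gene of fast muscle on the other strand, which rose from 11.1, 10.4 and 9.24 to 23.3, 29.2 and 17.1 CPM (1.18 on the log2 scale, edgeR adjusted p = 0.0098). As the strand setting is not known, reads in the exon stretch that 2 such genes share cannot be told apart. The same holds for 6 other members with a gene on the other strand. Exons of Foxm1, Top2a and Ncapd2 overlap those of other genes on the same strand. G2e3, a G2-expressed ubiquitin ligase, was at 75.8, 84.7 and 90.1 CPM (control) and 85.8, 79.4 and 74.6 CPM (deletion), the only member whose lowest library was mut221.

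At the centromere and kinetochore none of 6 passed, with a median log2 fold change of -0.05. Cenpa, the histone H3 variant that marks centromeres, was at 108, 119 and 127 CPM (control) and 126, 112 and 115 CPM (deletion), and the fitted difference was 0.00. Cenpf, a large protein of the outer kinetochore, was at 145, 157 and 178 CPM (control) and 166, 168 and 153 CPM (deletion). Ndc80, the microtubule-binding subunit of the complex named after it, was at 30.5, 28.01 and 33.5 CPM (control) and 27.01, 24.96 and 29.9 CPM (deletion). Its log2 fold change was -0.17 ± 0.09 (SE) (edgeR adjusted p = 0.304), and mut221 lay above cont213. Nuf2, the partner of Ndc80 in the same complex, had a fitted value of -0.02 with the widest interval of all members, -0.33 to 0.30. Its controls alone spanned 42.2 to 61.0 CPM. Birc5, which encodes survivin of the chromosomal passenger complex (chromosome 11, 117849251 to 117855743, plus strand, mm10), was at 90.7, 91.1 and 93.3 CPM (control) and 83.9, 82.4 and 89.7 CPM (deletion). Its groups did not overlap, with means of 91.7 ± 1.41 and 85.3 ± 3.88 CPM (SD, n = 3 each) and a log2 fold change of -0.10 ± 0.05 (SE), which did not pass (edgeR adjusted p = 0.267). Cenpe, the kinetochore motor, had a log2 fold change of -0.08.

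The spindle and motor genes had 7 of 8 fitted values below 0, a median of -0.07, and none past the threshold. Kif11, the motor that pushes spindle poles apart, measured 141, 154 and 176 CPM (control) and 143, 145 and 144 CPM (deletion). Tpx2, which activates Aurka and nucleates spindle microtubules, measured 130.1, 135 and 157 CPM (control) and 125, 133 and 139 CPM (deletion). In Kif11 all deletion libraries lay between cont212 and cont213, and in Tpx2 mut208 was the lowest of the 6. The other 6 ran from -0.10 (Kif20b, a late mitotic motor) and -0.10 (Kif2c, a microtubule depolymerase) through Hmmr (-0.06), Tacc3 (-0.05) and Nusap1 (-0.01), which bind spindle microtubules, to Ckap2 (0.04).

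Of the 3 genes that shape mitotic chromosomes, Smc4 and Ncapd2 both encode condensin subunits and had the lowest and the highest fold change of all members. Smc4 (chromosome 3, 69004738 to 69034623, plus strand, mm10) was at 174, 184 and 209 CPM (control) and 162, 164 and 174 CPM (deletion). Library mut221 lay just below cont212, so the groups were separate by a narrow gap. Group means came to 189 ± 18.03 and 166 ± 6.34 CPM (SD, n = 3 each), and the log2 fold change of -0.18 ± 0.07 (SE) had the smallest p of the members and did not pass (edgeR adjusted p = 0.140). Ncapd2 was at 232, 247 and 279 CPM (control) and 263, 262 and 274 CPM (deletion), with a log2 fold change of 0.08 ± 0.07 (SE). Top2a, the topoisomerase that untangles sister chromatids, was at 415, 443 and 537 CPM (control) and 466, 453 and 465 CPM (deletion). Its log2 fold change was -0.01, the controls spanning more than the deletion libraries (SD 63.9 against 7.22 CPM).

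In cytokinesis, Anln (anillin, of the contractile ring) was at 82.8, 93.9 and 105 CPM (control) and 85.5, 88.3 and 83.6 CPM (deletion). Ect2, the exchange factor that activates RhoA at the cell equator, was at 46.5, 51.8 and 60.7 CPM (control) and 48.4, 49.1 and 47.3 CPM (deletion). Both had cont213 and cont220 above every deletion library and cont212 below all of them, with log2 fold changes of -0.13 and -0.13 (edgeR adjusted p = 0.359 and 0.407). Kif23, the centralspindlin motor, was on the other side of 0 at 0.05. Over all roles, 3 of 38 members had every deletion library below every control (13.5% of all tested genes) and 0 had every one above (14.1%).

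Library cont220 stood above the other controls in every member. It was the highest of the 3 controls in 38 of 38, against 35.5% of all tested genes and 38.6% of tested genes of the same CPM range. It was the highest of all 6 libraries in 34 (89.5%), against 16.4% and 17.8%. The exceptions were Cks2, Aurka and Ckap2, highest in mut221, and Kif23, highest in mut208. Library cont212 was the lowest control in 32 and the lowest of 6 in 19, against 6518 and 3167 of the 19284 tested genes. On the log2 scale (CPM + 0.5), relative to each gene's mean over the 6 libraries, the members averaged -0.08, -0.01 and 0.16 in cont212, cont213 and cont220 and -0.04, -0.04 and 0.01 in mut208, mut211 and mut221. The SD of that mean was 0.12 among controls and 0.03 among deletion libraries. Over all tested genes the 6 libraries lay between -0.01 and 0.01, which TMM scaling on these same genes largely sets in advance. Members share libraries and are not replicates, so these counts carry no p.

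**Figure D2:**
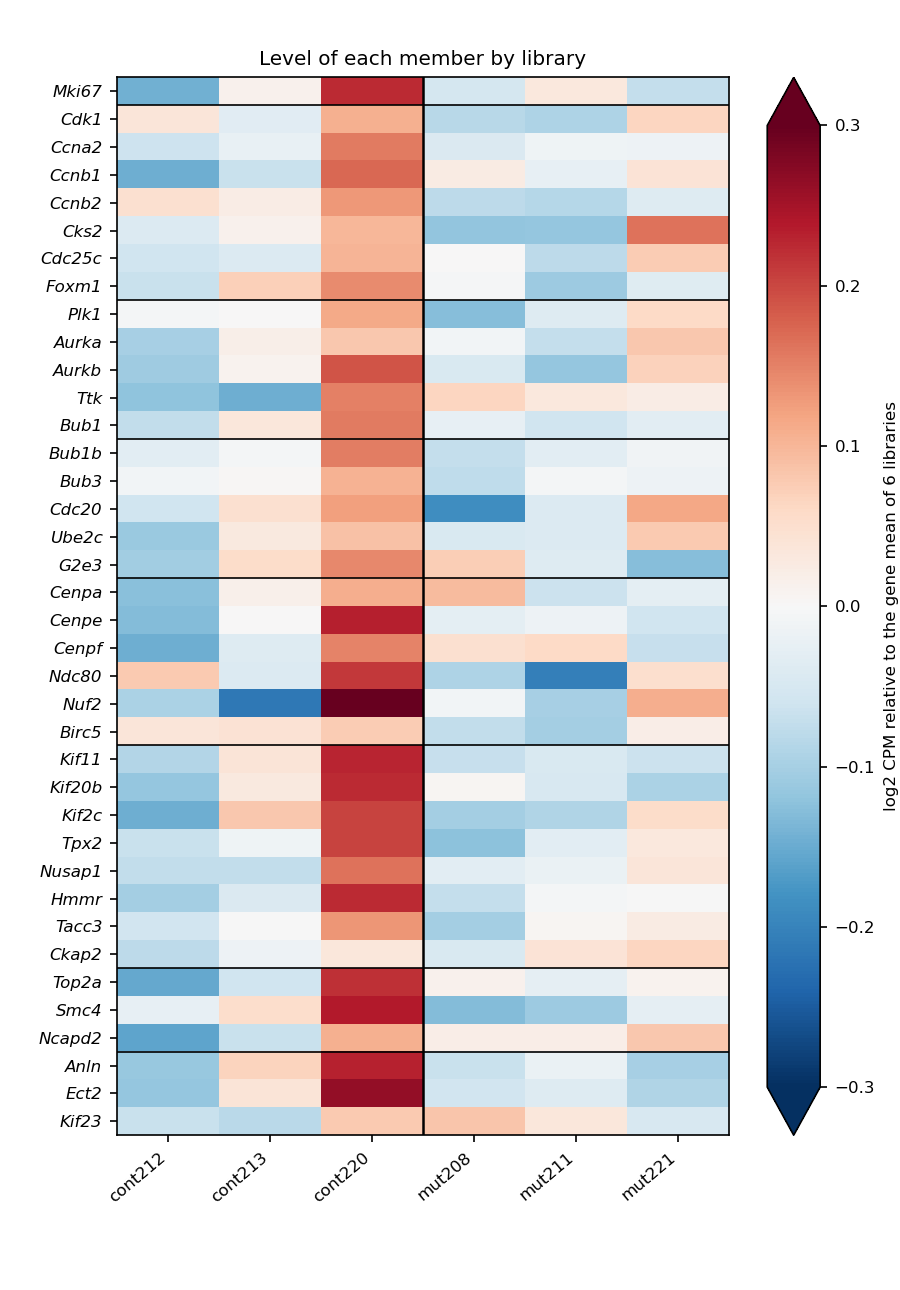
Log2 CPM of each of the 38 genes (rows, lines between roles) in each of the 6 libraries (columns), relative to the gene's mean over the libraries, with red above and blue below it. The column of cont220 is red in every row, and cont212 is the lowest library in 19 rows.

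The excess of cont220 over the mean of cont212 and cont213 was 15.02% over the members and differed in size among them. It was largest for Nuf2 (1.38-fold), Top2a (1.25-fold), Ect2 (1.23-fold), Cenpe (1.23-fold) and Hmmr (1.23-fold), and smallest for Birc5 (1.03-fold), Ckap2 (1.06-fold) and Ccnb2 (1.07-fold). By role it was highest for Mki67 (22.3%) and the chromosome condensation genes (19.4%) and lowest for the checkpoint and exit genes (10.3%). Members with TTTGAA in the promoter window and those without had a median log2 excess of 0.19 in the 23 and 0.18 in the 9, and median log2 fold changes between groups of -0.07 and -0.05. Other features of cont220 moved with this. Besides its sex, its summed level of 6 erythroid markers was 368 CPM, against 215 and 234 CPM in cont212 and cont213 and 290 to 437 CPM in the deletion libraries, and the summed level of the 8 mesenchyme markers was the lowest of the controls. That sum is mostly 3 collagens (Col1a1, Col1a2 and Col3a1), and of the 8 markers cont220 was the highest control in 3 (Prrx1, Osr2 and Msx1) and the lowest in 5. The part of sex, erythroid cells and mesenchyme in the level of the members was not tested.

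The group difference moved with the controls used. Without cont220 the median log2 fold change was 0.00 (18 of 38 below 0), and without cont212 and cont213, leaving cont220 as the only control, it was -0.17, with 38 of 38 below 0. In that fit 19 of 38 had an unadjusted p under 0.05, all lower, against 12.3% of all tested genes, and 0 passed after adjustment (edgeR adjusted p = 0.162 at the lowest; 0.435% of all tested genes passed). The lowest fold changes there were those of Ect2 and Smc4 (-0.33 each), Nuf2 (-0.31), Ndc80 and Anln (-0.29 each). With 1 control library all the spread comes from the deletion libraries, which are assumed to vary like controls. The groups were not alike in this, as the SD of the members' mean log2 level was 0.12 among controls and 0.03 among deletion libraries. Against cont212 and cont213 alone, the highest was Ttk (0.18) and the lowest Smc4, Ccnb2 and Ndc80 (-0.10 each), and the 2 with an unadjusted p under 0.05 were Ttk and Ncapd2, both higher (21.6% of all tested genes). Smc4, Ccnb2, Birc5 and Ndc80 were among the 18 genes below 0 in this fit. As all 38 were below 0 against cont220 alone, that fit adds nothing to this count, and both fits use the same deletion libraries.

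**Figure D3:**
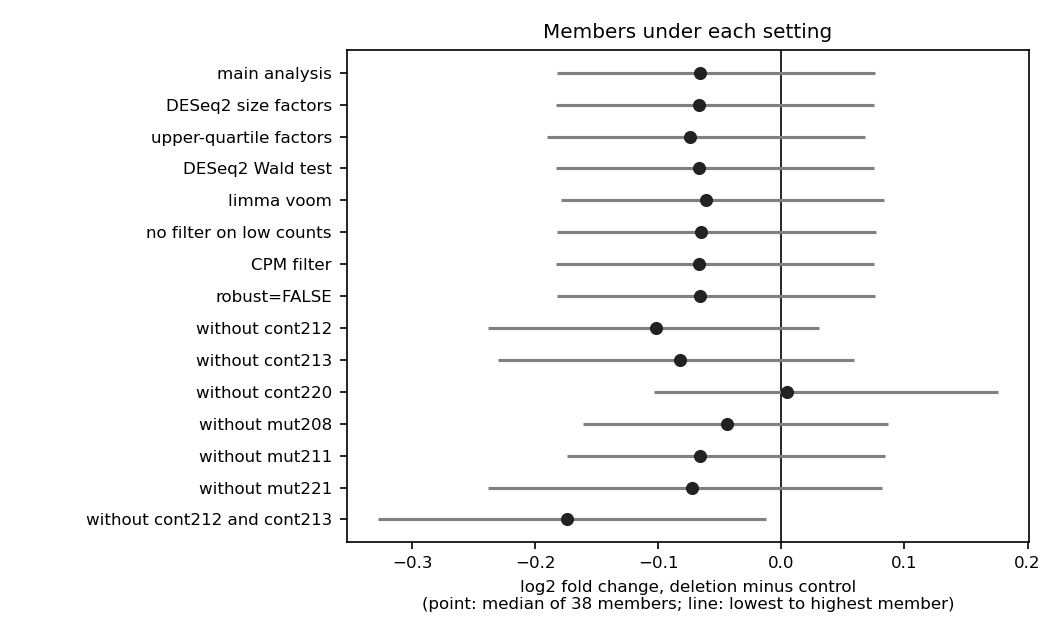
Log2 fold change (horizontal axis, deletion minus control) of the 38 genes under each setting, with the point for the median and the line from the lowest to the highest gene. Medians stay between -0.10 and 0.00 except without cont212 and cont213, where the median is -0.17 and the whole line lies below 0.

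The rest of the mitotic machinery was examined in 128 other genes, of which 0 passed in either direction (edgeR adjusted p = 0.051 at the lowest). At an unadjusted p under 0.05 there were 13 lower and 3 higher, 16 of 128 together, a smaller share than the 22.5% of all tested genes. The median log2 fold change was -0.03, with 84 of 128 below 0. Pkmyt1, the membrane-bound kinase that restrains Cdk1, was at 27.4, 26.1 and 29.7 CPM (control) and 22.1, 21.8 and 24.2 CPM (deletion) (-0.29 ± 0.08 (SE), edgeR adjusted p = 0.0510). Smc1a, an X-linked cohesin subunit, was at 199.5, 199 and 230.2 CPM (control) and 176, 173 and 185 CPM (deletion) (-0.24 ± 0.06 (SE), edgeR adjusted p = 0.0519). Anapc13, a small subunit of the anaphase-promoting complex, was at 33.1, 32.4 and 30.7 CPM (control) and 26.4, 25.6 and 28.8 CPM (deletion) (-0.25 ± 0.07 (SE), edgeR adjusted p = 0.0622). In these 3 genes, as in the spindle motor Kif15 (-0.21, edgeR adjusted p = 0.0865), every deletion library lay below every control. Such separation was found in 20 of the 128, and in the other direction in 8, against 13.5% and 14.1% of all tested genes. Pkmyt1 and Smc1a passed with upper-quartile scaling and, with Anapc13, in the DESeq2 Wald test. Library cont220 was the highest of 6 libraries in 77 of the 128 (60.2%).

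The 38 G1/S and DNA replication genes, which act one step earlier in the cycle, gave 0 calls, 4 genes at an unadjusted p under 0.05 (22.5% of all tested genes) and a median log2 fold change of -0.02. The smallest p belonged to Cdc6, which loads the replicative helicase (controls 28.6, 28.9 and 30.8, deletion 35.9, 35.5 and 30.6 CPM by library, log2 fold change 0.21, edgeR adjusted p = 0.144), and to Pola1, the X-linked polymerase alpha subunit (-0.19, edgeR adjusted p = 0.151). Library cont220 was the highest of 6 in 21 of them (55.3%). It stood 11.7% above cont212 and cont213, against 15.02% for the G2/M genes. The difference between the lists was not tested.

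**Figure D4:**
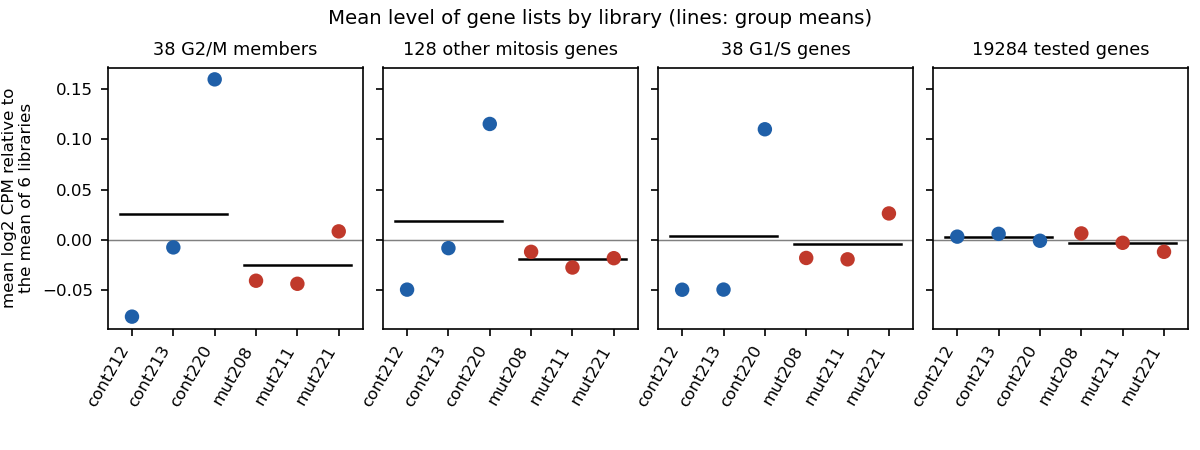
Mean log2 CPM of each gene list relative to its mean over the 6 libraries (vertical axis), with a point for each library, blue for control and red for deletion, and lines for group means. Library cont220 stands above the other 5 libraries in the 38 G2/M, 128 other mitosis and 38 G1/S genes. All 6 libraries lie near 0 over the 19284 tested genes, which TMM scaling largely sets in advance.

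Per kilobase of exon (CPM divided by the length of all annotated exons of the gene, GENCODE M21, mean of the 6 libraries), the members spanned 3.54 to 62.4 CPM per kb. Mki67 (62.4), Top2a (51.4), Cks2 (51.1), Cdc20 (47.4) and Ccna2 (44.9) were the highest, and Cdc25c (3.54), Ndc80 (4.46) and Ttk (6.87) the lowest. Related genes could differ on this scale, as with the condensin subunits Smc4 (34.1) and Ncapd2 (41.4), the checkpoint genes Bub1b (27.2) and Bub1 (14.3), or the cyclins Ccnb2 (33.4) and Ccnb1 (21.1), though the annotated exons include ones these cells may not use. Differences between libraries were small beside differences between genes.

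**Figure D5:**
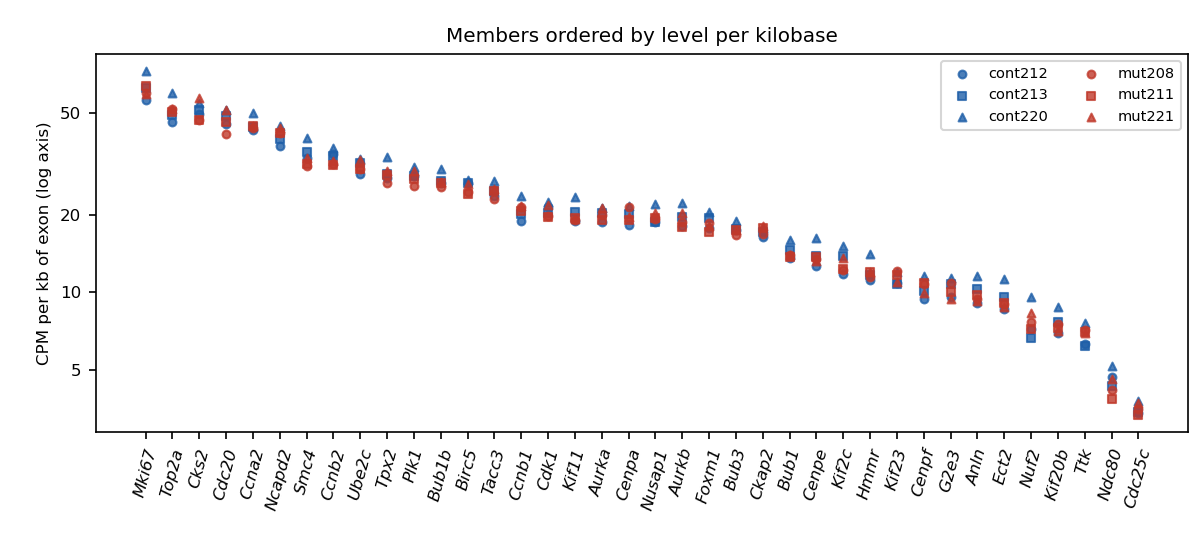
CPM per kilobase of annotated exon (log axis) of the 38 genes in each of the 6 libraries, in order of the mean, blue for control and red for deletion. Levels fall from 62.4 for Mki67 to 3.54 for Cdc25c, and cont220 (blue triangles) tops most columns.

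Several marker lists of other cell types moved with the groups while the members did not pass. Of all tested genes 3.65% rose and 3.37% fell by the edgeR test. Of 10 epithelial markers 5 fell and 0 rose, from a summed 1426 to 1545 CPM in controls to 967 to 1220 CPM in deletion libraries. Of 8 skeletal muscle markers 5 rose and 0 fell (402 to 447 and 720.3 to 1137 CPM), and of 6 cartilage markers 4 rose and 0 fell (202 to 326 and 546 to 623 CPM). Of 6 bone markers 5 were tested (Bglap was too low), of which 1 fell and 0 rose (summed level of the 6, 823 to 1182 and 156 to 328 CPM). Endothelial, macrophage and erythroid markers gave 0 calls of 6 each by the same edgeR test, and 1 of 6 neuron and glia markers rose. Of the 8 palatal mesenchyme markers 1 fell (Col1a2) and 0 rose. No marker of any list was at 0 in every library. The part of this change in tissue makeup in the levels of the G2/M genes was not tested.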

How the data were processed

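Poly(A) RNA of palatal shelves was measured in 3 control and 3 deletion libraries. The submitters' processing notes list CASAVA 1.8.2, STAR 2.4.1d, Partek and the build mm10. The counting step, annotation and strand setting: not given in the sources used here. One table holds what the authors deposited, estimated counts (expected counts) per gene symbol, not normalized. Column names show the group (cont or mut) and a number that no label gives, so columns have a group and no sample. Counts were rounded, filtered with filterByExpr (minimum count 10, minimum total 15), scaled by TMM and tested with edgeR 4.0.16's quasi-likelihood test (R 4.3.3; glmQLFit, robust) without covariates, with Benjamini-Hochberg adjustment over all tested genes at 0.05. SEs were taken as log2 fold change over the root of F, and intervals are at 95%. The script was tested on simulated data. Chi-square over degrees of freedom between libraries of a group was 7.79 to 38.0, more than counting noise. Positions, exon lengths and overlaps come from GENCODE M21 (GRCm38, the assembly of mm10), and promoter sequences from RefSeq on GRCm38.p6. The members, gene lists (266 entries, all in the table, 4 under another symbol), tests and alternatives were chosen with earlier results of these data known. Values in every library were to be given for 25 members named in advance and for the 4 of smallest p and 4 of largest change, and for other mitosis genes the 4 of smallest p. Nuf2, Ttk and Ncapd2, and Tnnc2, were added after their values were seen. Alternatives were edgeR with upper-quartile or DESeq2 size factors, Wald tests in DESeq2 1.42.0, limma 3.58.1 voom, no filter, a filter of CPM 1 in 3 libraries, robust=FALSE, each library left out, and cont212 and cont213 left out. Totals of 44919889 to 50022829 counts gave at least 750 counts for each member in each library.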

Additional observations from a re-analysis of the deposited data

How the results depend on the processing

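The count of members past the threshold was 0 of 38 under every one of the 14 alternatives run (lowest edgeR or other adjusted p 0.0756, without a filter on low counts). Their median log2 fold change was -0.10 to 0.0042 with 1 library left out (highest without cont220) and -0.17 without cont212 and cont213. Of 532 values of single members under an alternative, 488 kept their sign and 44, in 22 members, turned it, none past the threshold. Without cont212 and cont213, the turned values were Ccnb1 -0.16, Aurka -0.077, Ttk -0.11, Cenpf -0.13, Ckap2 -0.012, Ncapd2 -0.065, Kif23 -0.051. With 1 library left out, members that turned ranged from Ccnb1 -0.044 to 0.12, Aurka -0.048 to 0.042, Cenpf -0.043 to 0.11, Ube2c -0.061 to 0.038, Cenpa -0.061 to 0.056, Mki67 -0.15 to 0.034, Ccna2 -0.093 to 0.019, Cdc25c -0.041 to 0.052, Aurkb -0.13 to 0.018, Cenpe -0.16 to 0.029, Nuf2 -0.12 to 0.16, Tpx2 -0.14 to 0.0012, Nusap1 -0.055 to 0.069, Hmmr -0.12 to 0.047, Tacc3 -0.089 to 0.0073, Top2a -0.088 to 0.10, Cks2 -0.14 to 0.0066, Cdc20 -0.15 to 0.0019, 13 of them turning without cont220. Other settings turned only values next to 0: Aurka -2.9e-05 (DESeq2 size factors), Aurka -0.0075 (upper-quartile factors), Cdc25c 0.00102 (limma voom), Cenpa 0.0022 (limma voom), Nuf2 0.0038 (limma voom), Cenpa 0.00019 (no filter on low counts), Aurka -2.01e-05 (CPM filter). Among the other mitosis genes, upper-quartile factors called 2 (Pkmyt1 and Smc1a), the DESeq2 Wald test 3 (with Anapc13), no filter 4 (Kif15, Mad1l1, Pkmyt1 and Smc1a), the CPM filter 1 (Pkmyt1), and leaving out 1 library 0 to 4 (4 without mut221, 1 without mut211), all lower. The G1/S list had 0 to 1 calls with 1 library left out (Cdc6, higher, without mut221), and its median ran from -0.050 to 0.055 there and was -0.12 without cont212 and cont213. All called genes numbered 1352, 2125 with the DESeq2 Wald test, 356 to 1872 with 1 library left out and 89 without cont212 and cont213. Prmt1 was lower throughout, at -0.31 to -0.25 in the leave-one-out fits (not past the threshold without cont213, mut208 or mut211) and -0.24 without cont212 and cont213 (edgeR adjusted p = 0.292). The cause of these changes was not tested. No paired analysis was possible because the columns carry none of the replicate numbers of the labels. With 3 libraries a group, changes well under 1.2-fold in a member could not be told from 0. In some members larger changes could be missed too. Only 30 of 38 intervals lay inside 1.2-fold, and bounds reached a fall of 22.4% (Ndc80) and a rise of 23.0% (Nuf2).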

Other observations

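Among the other mitosis genes, the counts in which cont220 was the highest of the 6 libraries are given here by role, a split looked at after the values were seen. Over all tested genes the share was 16.4%. It was highest in 22 of 25 other spindle and motor genes, 13 of 15 other condensin and cohesin genes, 4 of 5 other kinases and chromosomal passenger genes, 7 of 11 checkpoint, securin, separase and shugoshin genes and 3 of 5 other cytokinesis genes. In other centromere and kinetochore genes the count was 17 of 30, and in other Cdk1 regulators 5 of 13. It was 3 of 12 in core subunits of the anaphase-promoting complex, which is present through much of the cell cycle, and 3 of 12 in genes of the DREAM and B-Myb complexes that act on G2 promoters. None of the genes of these 9 roles passed between deletion and control (edgeR). Genes of 1 list share libraries, and whether roles differed was not tested.

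The 8 condensin subunits measured had fitted log2 fold changes of -0.18 (Smc4), -0.15 (Ncapg), -0.12 (Ncaph), -0.09 (Ncapg2), -0.07 (Ncapd3), -0.05 (Ncaph2), 0.00 (Smc2) and 0.08 (Ncapd2). None passed the edgeR test (adjusted p = 0.14 at the lowest, for Smc4). Every deletion library lay below every control in 2 of the 8, Smc4 and Ncapg, as in 13.5% of all tested genes. Whether the subunits differed from each other was not tested.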
